A study of Arabidopsis thaliana with 25 samples.

Results

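The summits described here are the peak summits of transcript elongation factors that lie in the pericentromeric regions of the 5 Arabidopsis thaliana chromosomes. The regions were set by position alone, at 11.5 to 17.7 Mb on chromosome 1, 1.1 to 7.2 Mb on chromosome 2, 10.3 to 17.3 Mb on chromosome 3, 1.5 to 6.3 Mb on chromosome 4 and 9 to 16 Mb on chromosome 5. Of 30216 summits in 8 lists, 2807 fell there (9.29%, 95% interval 8.96 to 9.62), and the other 27409 lay in the chromosome arms. The same regions hold 3383 of 27444 protein-coding genes (12.3%) and 26.1% of the length spanned by annotated genes.

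Pericentromeric regions flank the centromeres and carry most of the plant's constitutive heterochromatin, which is rich in silenced transposable elements and marked by DNA methylation and by methylation of histone H3 at lysine 9. Protein-coding genes are sparse there, and many of them lie as islands among repeats. Elongation factors travel with RNA polymerase II (RNAPII) through transcribed genes: SPT5 works in the SPT4-SPT5 complex and ELF7 in the PAF1 complex, while FACT, a histone chaperone made of SSRP1 and SPT16, handles nucleosomes in the path of the polymerase. The carboxy-terminal domain of RNAPII is phosphorylated at serine 5 (S5P) early in transcription and at serine 2 (S2P) in productive elongation.

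The study used chromatin immunoprecipitation and sequencing (ChIP-seq) on Col-0 wild-type seedlings. Its 25 samples were 4 ChIP libraries each for SPT5, ELF7, SSRP1 and SPT16, 2 each for RNAPII S2P and RNAPII S5P, and 5 input libraries. All groups share the Col-0 ecotype and long days of 16 h, kept at 21 °C by day and 18 °C by night. A heat step of 44 °C for 10 min stands in the protocol of every sample, yet none is labelled as heated, and the samples were not divided by it.

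Each list is named for a factor over an RNAPII form and is read as summits called for the factor against that form; the control and the pooling of libraries are not stated. So read, a summit shows that the factor was in excess of that RNAPII form, which is not its occupancy alone, and it carries a score, read as the −log10 of a q-value, with 2.0 the lowest of all. The lists have no column per library, so no value here has a replicate error and the depth of the libraries is unknown. Intervals are exact 95% intervals for counting error only, and neither summits nor genes are replicates. Summits of a gene, and lists that share a factor or an RNAPII form, are not independent of each other.

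The pericentromeric label was checked against the annotation. Coding genes stood at 109 per Mb in these regions, against 273 per Mb in the arms, and 3777 of 4843 annotated pseudogenes (78.0%) lay there. The median coding gene was shorter, at 1714 bp against 2120 bp in the arms. Each region surrounds a stretch with no coding gene at all, of 247 kb on chromosome 1, 135 kb on chromosome 2, 491 kb on chromosome 3, 201 kb on chromosome 4 and 440 kb on chromosome 5. None of the 8 lists placed a summit in these 5 stretches. They were chosen for having no coding gene, and 82.2% of pericentromeric summits lay inside coding genes, so few summits could fall there. How well reads can be placed in the repeats of these regions was not tested.

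Per coding gene, summits were sparser in the pericentromeric regions than in the arms. Over all lists there were 829.7 summits per 1000 coding genes, against 1139 in the arms, a ratio of 0.728. Chromosome 1 had 909 against 1137 in its arms, chromosome 2 had 746 against 1125, chromosome 3 had 899 against 1155, chromosome 4 had 832 against 1155, and chromosome 5 had 772 against 1127. The pericentromeric density was thus the lower one on each of the 5 chromosomes.

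The FACT subunits had the lowest ratios of the lists as deposited, an order that changed with scores of at least 10, where ELF7 over S2P was lowest at 0.513, and with the region limits moved by 0.5 Mb. SSRP1 had 138.9 summits per 1000 pericentromeric genes over S2P, against 207 in the arms (ratio 0.671, 0.609 to 0.738), from 470 of its 5451 summits. Over S5P it had 105.5 against 159.7 (ratio 0.661, 0.591 to 0.737), from 357 of 4199 summits. SPT16 had 175.9 against 248.7 over S2P (ratio 0.707, 0.649 to 0.770; 595 of 6578 summits) and 207.5 against 278.1 over S5P (ratio 0.746, 0.689 to 0.807; 702 of 7394 summits). In these 4 FACT lists the ratio was below 1 on all 5 chromosomes, and it ran from 0.515 for SSRP1 over S5P on chromosome 5 to 0.811 for SPT16 over S5P.

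ELF7 and SPT5 had higher ratios, and 2 of their 4 lists were too short to place them on either side of 1. ELF7 over S2P had 78.0 summits per 1000 pericentromeric genes, against 100.7 in the arms (ratio 0.775, 0.680 to 0.880; 264 of 2687 summits), and was below 1 on 5 of 5 chromosomes. SPT5 over S5P had 93.1 against 108.1 (ratio 0.861, 0.764 to 0.969; 315 of 2916 summits), with single chromosomes from 0.749 to 1.0. Its ratio was on the other side of 1 with scores of at least 10 (1.05) and per kb of coding gene (1.04). ELF7 over S5P, with 72 pericentromeric summits of 693, had a ratio of 0.825 whose interval included 1 (0.637 to 1.05). SPT5 over S2P, with 32 of 298, had a ratio of 0.856 (0.574 to 1.24), and its single chromosomes ranged from 0.398 to 1.63. For counts of summits, the intervals of the SSRP1 ratios over both forms end below the interval of SPT5 over S5P. With marked genes in place of summits, SPT5 over S5P had a lower ratio of 0.738, and SSRP1 had 0.640 over S2P and 0.624 over S5P. No intervals were computed for these 3 ratios.

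**Figure D1:**
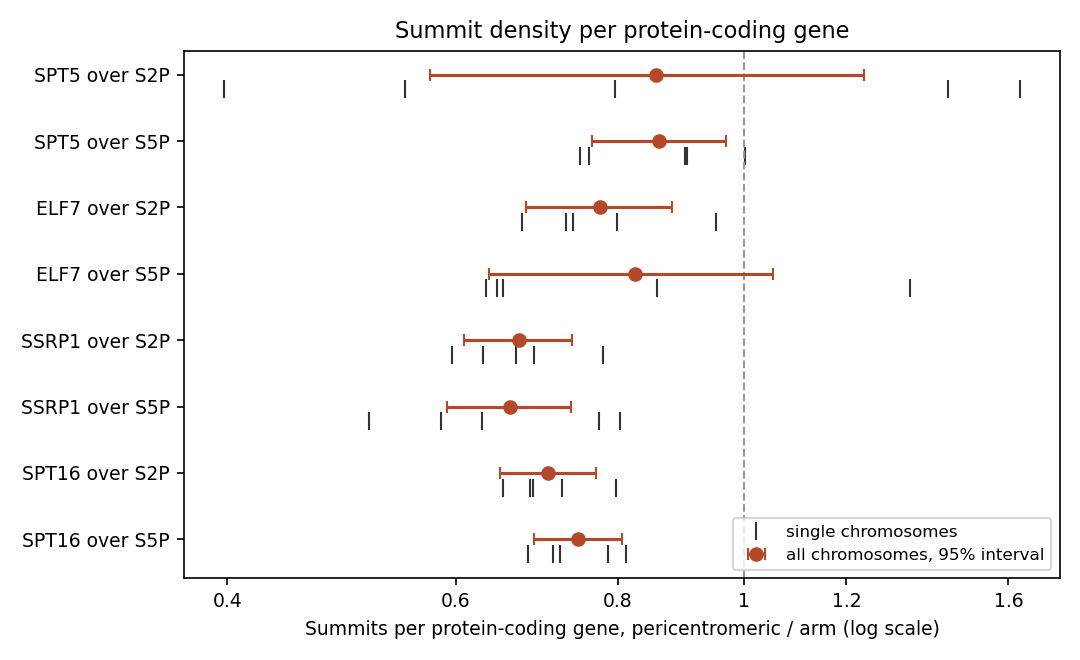
Ratio of summits per protein-coding gene in the pericentromeric regions to that in the arms, on a log scale, for the 8 lists; points and bars are all chromosomes with the 95% interval for counting error, and ticks are the 5 single chromosomes. The 4 FACT ratios lie between 0.661 and 0.746, and the intervals of SPT5 over S2P and ELF7 over S5P cross 1.

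The balance between the RNAPII forms did not differ detectably between the regions and the arms. Of pericentromeric SPT5 summits, 9.22% came from the S2P list (6.39 to 12.8), against 9.28% in the arms. For ELF7 the S2P share was 78.6% (73.8 to 82.8), against 79.6% in the arms. SSRP1 stood at 56.8% (53.4 to 60.2), against 56.5%, and SPT16 at 45.9% (43.1 to 48.6), against 47.2%. Each arm share lay inside the pericentromeric interval of its factor. With scores of at least 5 the pericentromeric SPT16 share was 50.9%, on the other side of an even split.

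Fewer genes were marked, rather than fewer summits within the marked genes. A coding gene counts as marked by a list where at least 1 summit of that list lies inside it. In any list, 609 of the 3383 pericentromeric genes were marked (18.0%, 16.7 to 19.3), against 27.7% of arm genes and 26.5% of all coding genes. Marked genes held 3.89 summits over all lists, against 3.71 in the arms.

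List by list, SSRP1 over S2P marked 394 pericentromeric genes (11.6%, against 18.2% of arm genes and 17.4% of all coding genes). SSRP1 over S5P marked 271 (8.01%, against 12.8% in the arms and 12.3% of all). SPT16 marked 444 over S2P (13.1%, against 19.8% in the arms and 18.9% of all) and 408 over S5P (12.1%, against 18.0% in the arms and 17.3% of all). These FACT shares were the furthest from those of the arms. ELF7 marked 209 over S2P (6.18%, against 8.43% in the arms and 8.15% of all) and 56 over S5P (1.66%, against 1.95% in the arms and 1.92% of all). SPT5 marked 25 over S2P (0.739%, against 0.852% in the arms and 0.838% of all) and 158 over S5P (4.67%, against 6.33% in the arms and 6.13% of all). The intervals for ELF7 over S5P (1.253% to 2.14%) and SPT5 over S2P (0.479% to 1.09%) include the arm share, and those of the other 6 lists lie below it.

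Gene length went with marking in the pericentromeric regions. The 609 marked genes had a median length of 2329 bp, and the 2774 unmarked ones of 1507 bp. In the arms the marked genes had a median of 2302 bp, against 2120 bp for all arm genes. A marked gene needs a summit inside it, and a longer gene has more room for one. The part of this in the medians was not tested. Among genes under 1000 bp, 5.39% were marked in any list (4.05% to 7.01%), against 14.6% in the arms. From 1000 to 1500 bp the share was 14.1% against 27.0%, from 1500 to 2000 bp it was 22.7% against 27.7%, and from 2000 to 3000 bp it was 25.6% against 31.3%. From 3000 to 5000 bp it was 29.9%, with an interval of 26% to 34.0% that includes the arm share of 32.4%. Genes of 5000 bp or more stood at 21.2% against 28.5%. The gap was therefore widest among genes under 1500 bp. With arm genes weighted to the same 6 length classes, 25.4% of them would be marked, which leaves a ratio of 0.710, and the ratio for single lists ran from 0.685 for SSRP1 over S5P to 0.967 for ELF7 over S5P.

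The genes that carry a symbol in the gene table, 26.7% of pericentromeric and 39.4% of arm genes, were marked at close to the share of the arms. In any list 284 of the 903 pericentromeric genes with a symbol were marked (31.5%, 28.4 to 34.6), and the interval includes the 34.2% of the arms. Of the 2480 without a symbol 325 were marked (13.1%, 11.8 to 14.5), against 23.5% in the arms. With a symbol, the ratio to the arms ran from 0.907 to 1.35 over the 8 lists, and 5 of 8 were below 1. Without one it ran from 0.523 to 0.815, below 1 in 8 of 8. For SPT16 over S2P the share with a symbol was 25.1% against 26%, and for ELF7 over S2P it was 13.3% against 12.3%. A symbol says only that a gene has been named, and this class was chosen after the data were seen.

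**Figure D2:**
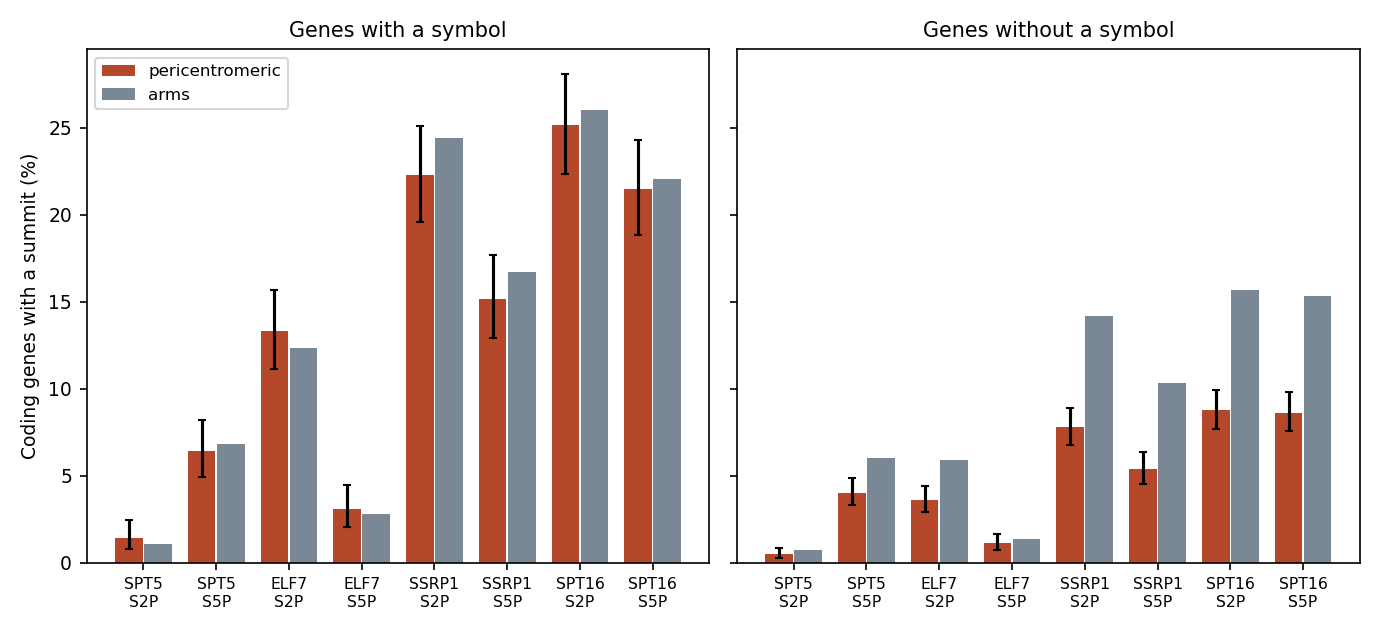
Share of protein-coding genes with a summit inside, in percent, for each list, in the pericentromeric regions (left bar, with the 95% interval for counting error) and the arms (right bar), for genes with and without a symbol. With a symbol the ratio of the bars runs from 0.907 to 1.35, and without a symbol from 0.523 to 0.815.

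Pseudogenes near a gene also went with fewer marks. A pseudogene lay within 5 kb of 53.7% of pericentromeric coding genes, against 11.8% of arm genes. Of such genes 15.3% were marked in any list, against 23.3% in the arms, and of those with no pseudogene near 21.1% were marked, against 28.3% in the arms. The ratio over the lists was 0.606 to 0.899 with a pseudogene near, and 0.717 to 1.01 without. Length, symbol and neighbouring pseudogenes overlap as properties of genes, and the part of each in the density was not tested.

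Within the regions, marking was lowest next to the coding-free stretches. Less than 1 Mb from them, 59 of 587 genes were marked in any list (10.1%, 7.74 to 12.8). From 1 to 2 Mb the share was 18.9% (169 of 895), from 2 to 3 Mb 20.1% (295 of 1466), beyond 3 Mb 19.8% (86 of 435), and in the arms 27.7%. The innermost share therefore stood below the other pericentromeric shares, which differed little from each other.

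The innermost share was the lowest in all lists but the 2 shortest, SPT5 over S2P and ELF7 over S5P. SSRP1 over S2P marked 5.11%, 12.3%, 13.4% and 13.3% of genes from the innermost to the outermost distance, and 18.2% in the arms. SPT16 over S2P marked 6.13%, 14.2%, 14.9% and 14.3%, and 19.8% in the arms. ELF7 over S2P marked 3.24%, 5.81%, 7.23% and 7.36%, and 8.43% in the arms. SPT5 over S5P went from 3.07% through 4.58% and 5.12% to 5.52%, with 6.33% in the arms. SPT5 over S2P had 0.681%, 0.894%, 0.614% and 0.920%, with 0.852% in the arms, which shows no order at this number of summits.

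**Figure D3:**
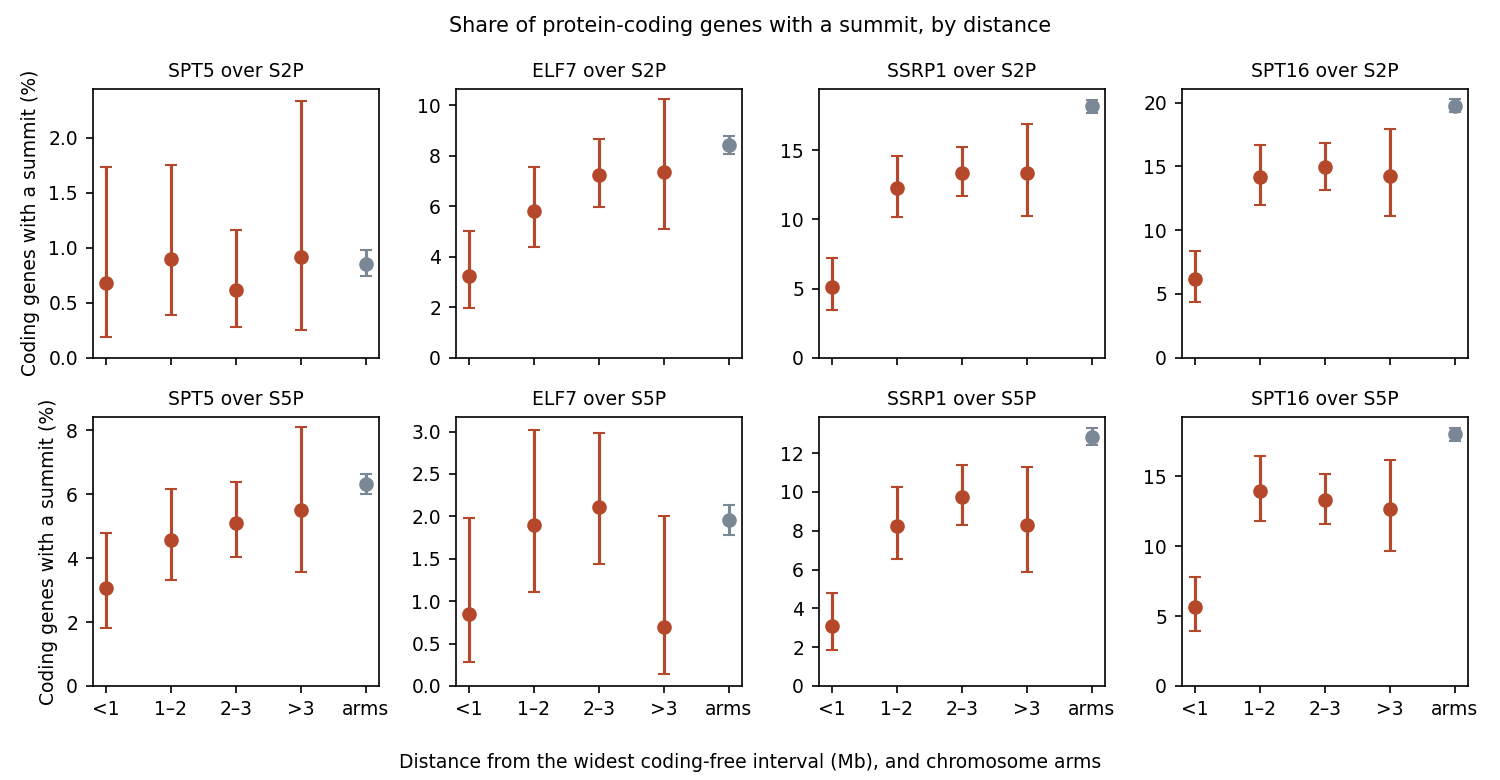
Share of protein-coding genes with a summit inside, in percent, by distance in Mb from the widest coding-free stretch of the chromosome, with the arms at the right, 1 panel per list, each with its own vertical scale; bars are 95% intervals for counting error. SSRP1 over S2P stands at 5.11% within 1 Mb and 18.2% in the arms.

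At the outer limits the density over all lists changed little. In the last 0.5 Mb inside the limits there were 1010 summits for 1029 coding genes, or 981.5 per 1000, and in the first 0.5 Mb outside there were 1233 for 1210 genes, or 1019 per 1000. The limits thus do not coincide with a step in the density over all lists. Single lists went both ways, higher inside for SPT5 over S2P and the ELF7 lists and lower inside for the others. ELF7 over S2P had 98.2 per 1000 inside against 81.8 outside, and SSRP1 over S2P 165.2 against 184.3. No intervals were computed for these values.

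The marked genes nearest to the coding-free stretches came from several lists. On chromosome 5, RPS1, for plastid ribosomal protein S1, lay 15.3 kb from the stretch and was in 5 lists, with 9.36 for SSRP1 over S2P, 6.48 for SPT5 over S5P, 6.11 for SSRP1 over S5P, 5.15 for SPT16 over S5P and 3.50 for SPT16 over S2P. On its other side AT5G32450 lay 2.81 kb away, in 4 lists with scores up to 7.12. On chromosome 3, AT3G32980 bordered the stretch directly and was in 3 lists with scores up to 4.97, and AT3G42050 lay 208 kb off in 2 lists, with 5.44 at most.

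On chromosome 2, AT2G09990 lay 20.9 kb away in 4 lists, led by 9.70 for SPT16 over S2P, and AT2G10940 lay 372 kb away in 6 lists, led by 19.7 for SSRP1 over S2P. On chromosome 4, AT4G06534 lay 38.2 kb away in 3 lists with scores up to 6.79, and AT4G05540 lay 296 kb away with only an SPT5 summit over S5P of 3.17. On chromosome 1 the nearest marked genes were AT1G36980, 269 kb away with only an ELF7 summit over S2P of 4.34, and SKS6, a gene of the SKU5 SIMILAR family, 1060 kb away in 4 lists with 9.36 for SSRP1 over S2P. The distance to the nearest marked gene thus differed between chromosomes, from 0 kb to 269 kb on the nearer side.

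Where summits lay relative to genes differed with the factor and with the RNAPII form. Over all lists together, a larger part of them lay outside coding genes than in the arms. Inside coding genes were 82.2% of pericentromeric summits (80.7 to 83.6), against 88.0% in the arms. The interval lay below the arm share for SPT5 over S5P and the 4 FACT lists. Inside were 47.0% of SPT5 summits over S5P (41.4 to 52.7) against 54.4%, 74.5% of SPT16 over S5P (71.1 to 77.7) against 82.4%, 89.1% of SPT16 over S2P (86.3 to 91.5) against 94.5%, 86.8% of SSRP1 over S5P (82.9 to 90.2) against 91.7%, and 93.8% of SSRP1 over S2P (91.3 to 95.8) against 96.3%. ELF7 was almost wholly inside genes, with 97.7% over S2P against 98.6% in the arms, and 72 of 72 summits over S5P against 98.1%. SPT5 over S2P had 78.1% inside (60.03 to 90.7), against 77.8%.

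Summits more than 500 bp from any coding gene made up 5.2% of the pericentromeric ones (146 summits, 4.41 to 6.09), against 2.44% in the arms. The share was 6.55% for SPT16 over S2P against 2.59%, 6.13% for SPT16 over S5P against 2.38%, 6.16% for SSRP1 over S5P against 3.15%, 4.47% for SSRP1 over S2P against 2.31%, and 3.81% for SPT5 over S5P against 2.08%. ELF7 over S2P had 2.27% against 0.991%, while SPT5 over S2P had 9.38% against 13.5% and ELF7 over S5P 0 of 72 summits against 0.966%. In the 4 FACT lists the lower interval bound lay above the arm share, at 4.70% (S2P) and 4.47% (S5P) for SPT16 and at 2.79% (S2P) and 3.90% (S5P) for SSRP1. Coding genes are also further apart here, and the part of that spacing in these shares was not tested.

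**Figure D4:**
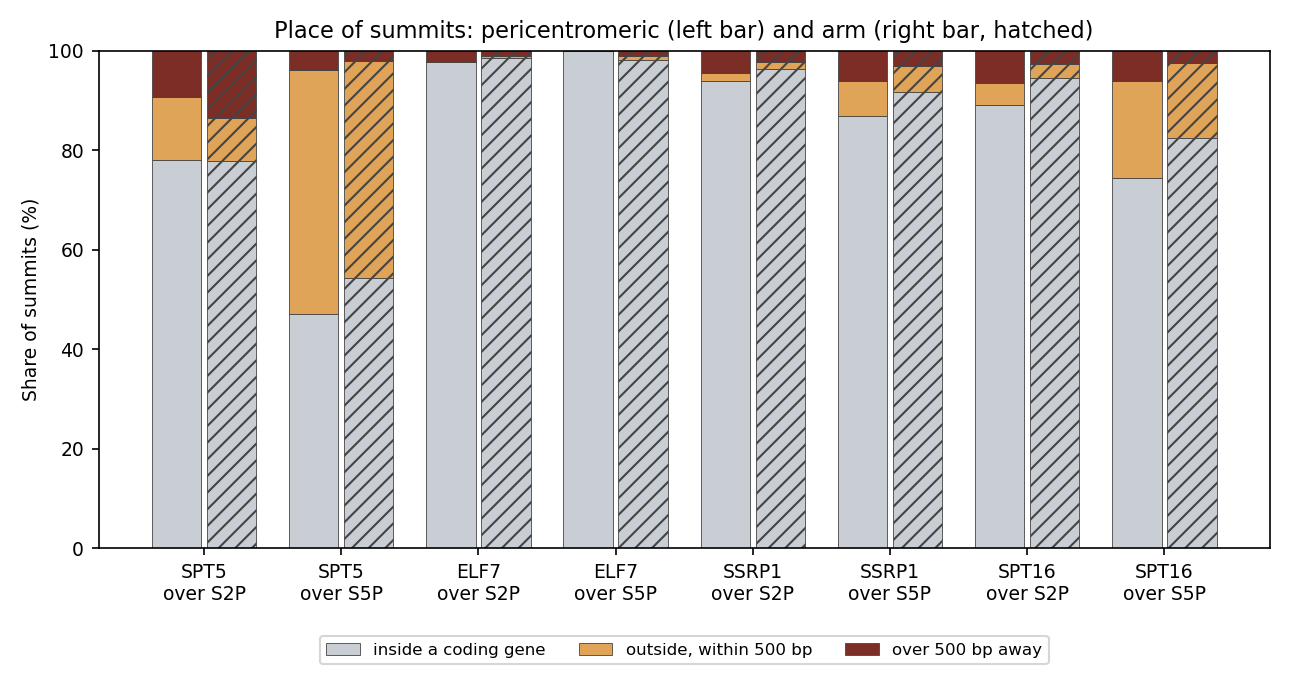
Share of summits inside a coding gene, outside but within 500 bp, and over 500 bp away, in percent, for each list; the left bar is pericentromeric and the right, hatched bar is the arms. SPT5 over S5P has 47.0% inside in the pericentromeric regions, and ELF7 over S5P has 72 of 72.

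The median distance to the nearest coding gene end did not differ detectably from the arms in any list. It was 70 bp for SPT5 over S5P (56 to 79), against 61 bp in the arms, and 797 bp for ELF7 over S2P (745 to 852), against 775 bp. SSRP1 stood at 509 bp over S2P against 494 bp, and at 448 bp over S5P against 439 bp. SPT16 stood at 550 bp over S2P against 544 bp, and at 386.5 bp over S5P against 374 bp. SPT5 over S2P, with 32 summits, stood at 549.5 bp (364 to 658) against 470.5 bp, and ELF7 over S5P at 814.5 bp against 801 bp. Each of these arm medians lay inside the pericentromeric interval. The distance has no direction and joins summits inside and outside genes, so it cannot decide whether summits were shifted along genes. Starts and ends of transcription were not told apart here.

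Median scores of pericentromeric summits differed from those of the arms by little in 7 of the lists and by most in SPT5 over S2P, the shortest list. The median was 6.63 against 6.67 for SSRP1 over S2P, 4.78 against 4.91 for SSRP1 over S5P, 5.68 against 5.83 for SPT16 over S2P and 4.79 against 4.72 for SPT16 over S5P. It was 4.30 against 4.34 for ELF7 over S2P, 3.85 against 3.95 for ELF7 over S5P, 4.74 against 4.67 for SPT5 over S5P and 3.10 against 3.65 for SPT5 over S2P. Of the strongest 10% of ELF7 summits over S2P, 6.32% were pericentromeric (3.72 to 9.93), compared with 9.83% of the whole list, and of the strongest 10% of SPT5 over S5P 13.0% (9.38 to 17.4), compared with 10.8%. For SPT5 over S2P this was 1 of 30 summits (3.33%, 0.0844 to 17.2), compared with 10.7%. These intervals include the share of the whole list.

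Among pericentromeric genes, most genes of the ELF7, SSRP1 and SPT16 lists over S5P were also in the list of the same factor over S2P. SPT5 cannot be compared with them in this way. It marked 25 genes over S2P and 158 over S5P, so most of its S5P genes could not have been shared. Lists of a factor are read as sharing its libraries, so common genes are built in. Of the 56 ELF7 genes over S5P, 55 were ELF7 genes over S2P (98.2% of the first list and 26.3% of the second). SSRP1 had 257 genes in both, 94.8% of its S5P genes and 65.2% of its S2P genes, and SPT16 had 337, 82.6% and 75.9%. SPT5 had 8 in both, 5.06% of its S5P genes and 32.0% of its S2P genes, where its lists marked 0.739% (S2P) and 4.67% (S5P) of all pericentromeric genes. The strongest summits over both forms stood at the same base in 159 of the 257 SSRP1 genes, 175 of the 337 SPT16 genes, 27 of the 55 ELF7 genes and 3 of the 8 SPT5 genes.

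Lists of different factors over different forms share no library as read here. SSRP1 over S2P and SPT16 over S5P shared 287 pericentromeric genes, 72.8% of the SSRP1 genes and 70.3% of the SPT16 genes, against 69.6% and 70.3% in the arms. SSRP1 over S5P and SPT16 over S2P shared 251, or 92.6% and 56.5%, against 89.6% and 58.2% in the arms. ELF7 over S2P and SPT16 over S5P shared 162 (77.5% and 39.7%), against 76.3% and 35.7% in the arms. SPT5 over S5P shared 48 genes with SSRP1 over S2P (30.4% and 12.2%), against 26.7% and 9.28% in the arms. The FACT subunits thus met in most of their genes in both parts of the genome. Of all pericentromeric genes, SSRP1 marked 11.6% over S2P and 8.01% over S5P, and SPT16 marked 13.1% and 12.1%. In the arms these shares were 18.2% and 12.8% for SSRP1, and 19.8% and 18.0% for SPT16. The part of SPT5 genes over S5P shared with SSRP1 over S2P was thus a minority, yet above the share of all genes that SSRP1 over S2P marked. With SPT16 over S5P, SPT5 over S5P shared 90 genes, 57.0% of its own, against 54.2% in the arms. Those lists have the RNAPII form in common and are not independent of each other.

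Of the 609 marked pericentromeric genes, 128 were in 1 list, 128 in 2, 78 in 3, 116 in 4, 89 in 5, 54 in 6, 14 in 7 and 2 in all 8. At least 5 lists held 26.1% of them, against 23.1% in the arms, and at least 6 lists held 11.5% against 8.68%. The 2 genes in all 8 lists were AT4G04320 and AT2G16365.

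AT4G04320, on chromosome 4, had scores of 26 for SPT16 over S5P, 16.1 for SPT16 over S2P, 15.4 for SSRP1 over S5P and 10.1 for SSRP1 over S2P. Its SPT5 scores were 13.4 over S5P and 5.52 over S2P, both at position 2116265 and 428 bp from the gene end, and its ELF7 scores were 6.05 over S5P and 2.35 over S2P. With 26 it stood at rank 10 of all SPT16 summits over S5P, arms included. AT2G16365, on chromosome 2, had lower scores, from 3.12 for ELF7 over S5P to 10.4 for SPT16 over S5P.

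RbcX1, which encodes a chaperone of Rubisco assembly and overlaps the end of AT4G04320, was in 7 lists. It scored 28.3 and 22.8 for SSRP1 over S2P and S5P, 23.5 for SPT16 over S2P, 11.6 and 14.1 for ELF7 over S2P and S5P, and 6.33 and 9.75 for SPT5 over S2P and S5P. It had no SPT16 summit over S5P. Each of its ELF7 summits lay 891 bp and each of its SSRP1 summits 337 bp from the gene end, so that ELF7 and SSRP1 marked different places in it. The SPT5 summit over S2P, at position 2118253, lay close to the SSRP1 summits, at position 2118280. The strongest summits of AT4G04320 in each list, from position 2116259 to 2116546, lay outside RbcX1 but near the overlap of the 2 genes. Their assignment to AT4G04320 alone is therefore uncertain, and so is the lack of an SPT16 summit over S5P in RbcX1.

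Other genes in 7 lists differed in the list they lacked. CSLC04, for a synthase of the xyloglucan backbone, lacked SPT5 over S2P and scored 27.7 for SSRP1 and 27.5 for SPT16 over S2P, with an SPT5 summit over S5P of 6.83 only 18 bp from the gene end. The gene emb1138, for the chloroplast RNA helicase RH3, lacked SPT5 over S5P and reached 26.2 with SSRP1, 21.6 with SPT16, 15.4 with ELF7 and 4.91 with SPT5, each over S2P. NIR1, for nitrite reductase, lacked ELF7 over S5P and scored 24.0 for SSRP1 over S2P but 2.44 over S5P. ABCB19, for an auxin transporter, lacked SPT5 over S5P and scored 22.2 for SPT16 and 20.2 for SSRP1 over S2P.

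AT2G05920 and AT1G33970 lacked SPT5 over S2P, and scored 23.8 and 17.7 for SPT16 over S2P. AT4G04630 lacked SPT5 over S5P and scored 19.2 for SPT16 over S2P. AT1G45163 and AT1G45165 overlap and share their summits, which cannot be assigned to either gene, with 19.1 for SPT16 over S2P and 17.0 for SSRP1 over each form. None of the 10 genes named here, of 14 in 7 lists, lacked SSRP1 or SPT16 over S2P. They were picked for being in most lists, and these are among the longest lists, so this is no evidence about the genes.

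**Figure D5:**
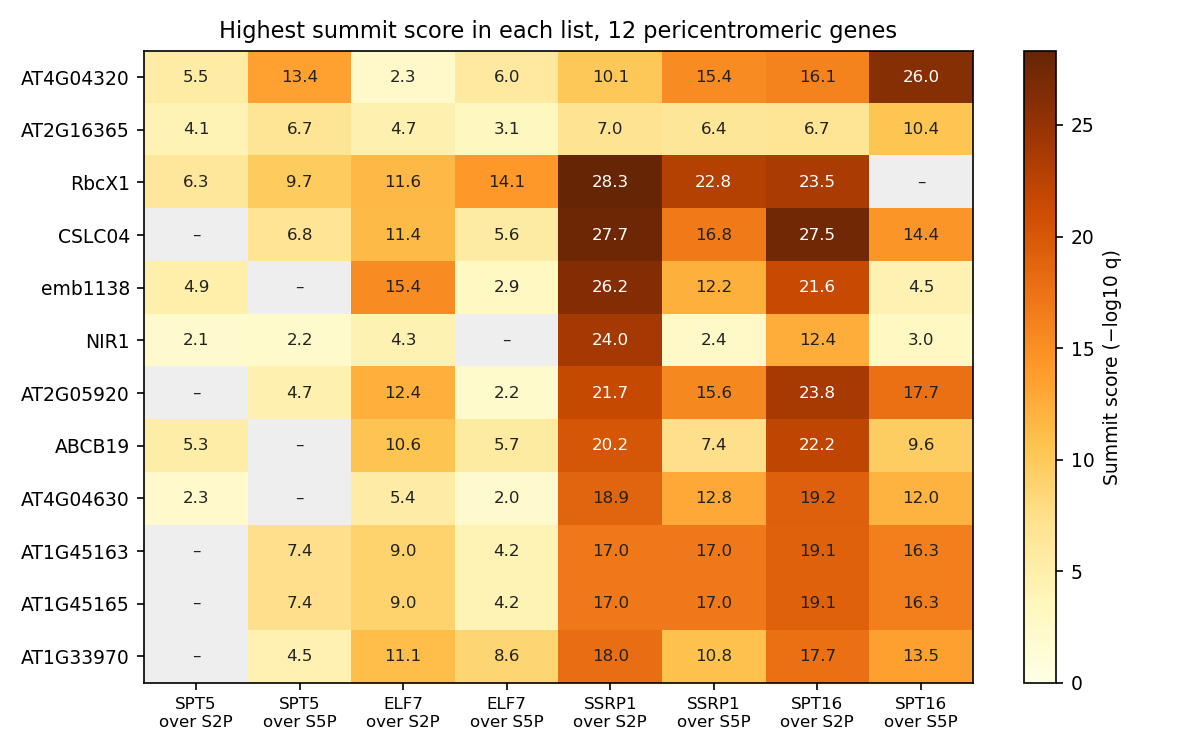
Highest summit score (−log10 of the q-value, as read) in each of the 8 lists for the 12 pericentromeric genes found in the most lists; a dash marks a list with no summit in the gene, and scores of different lists are not on 1 scale. AT4G04320 and AT2G16365 have a score in all 8 lists, and RbcX1 has none for SPT16 over S5P.

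The highest scores in single lists brought in genes of cell wall and growth. XTH4, for an enzyme that cuts and rejoins xyloglucan, led ELF7 with 29.9 over S2P and 17.0 over S5P, at ranks 8 and 9 of all ELF7 summits of these lists and both at position 2764315 on chromosome 2. Its SPT16 scores were 35.6 over S2P and 23.4 over S5P, its SSRP1 scores 31.6 and 18.5, and it had no SPT5 summit. EXO, whose product promotes growth downstream of brassinosteroids, followed for ELF7 with 20.6 over S2P and 14.2 over S5P, and scored 17.8 and 16.5 for SSRP1 and 18.1 and 14.4 for SPT16. The 2 genes thus carried ELF7 and FACT summits over both forms.

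KCS8, for a 3-ketoacyl-CoA synthase of very-long-chain fatty acid synthesis, had the highest pericentromeric SSRP1 score over S2P, 32.6, and 19.6 for SPT16. AT5G37540 scored 30.2 for SSRP1 and 24.3 for SPT16 over S2P, and AT5G35735 26.5 for SSRP1 over S2P and 18.1 over S5P. ILL6, a gene of the family that frees amino acid conjugates of plant hormones, scored 18.5 for SPT16 over S5P and 17.2 over S2P. These genes had no SPT5 summit, except ILL6 with 3.97 over S5P.

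SPT5 was led by other genes. Over S2P the highest pericentromeric scores inside coding genes were 7.13 in NDPK1, for a nucleoside diphosphate kinase, at rank 18 of the whole list, then 6.33 in RbcX1 and 5.59 in AT3G28270, which had a summit in no other list. Over S5P the highest inside a coding gene were 16.2 in AT4G09620, at rank 6 of the list and 22 bp from the gene end, then 13.7 in AT1G34340, 3 bp from the gene end, and 13.4 in AT4G04320. AT4G09620 also held an SPT16 summit over S5P of 11.1, 39 bp from the end, and AT1G34340 held no summit of another list.

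Of 57 genes in 6 functional lists, all matched the gene table, 55 lay in the regions and 36 were marked in any list. The lists were drawn up with earlier results of these data known, so their shares are no evidence that these functions stand apart. Over all coding genes of the genome 26.5% were marked. By list this share was 17.4% and 12.3% for SSRP1 over S2P and S5P, and 18.9% and 17.3% for SPT16. It was 8.15% and 1.92% for ELF7, and 0.838% and 6.13% for SPT5, over S2P and S5P. The counts of members below stand beside these shares, and with so few members differences between forms were not tested.

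Photosynthesis and carbon fixation genes had 10 of 13 members marked, by SSRP1 over S2P in 10, by SPT16 over S2P in 8 and by ELF7 over S2P in 6. Over S5P the counts were 3 for SSRP1, 1 for SPT16 and 0 for ELF7, and SPT5 marked none over either form. SPT5 marked 0.838% (S2P) and 6.13% (S5P) of all coding genes, and ELF7 over S5P 1.92%. A count of 0 for these lists among so few members, here or in the lists that follow, therefore shows no difference from the background. NPQ4, for the photoprotection protein PsbS, scored 13.8 for SSRP1 over S2P, 4.76 for SPT16 over S2P and 3.18 for SSRP1 over S5P. ATPD, for a chloroplast ATP synthase subunit, scored 6.23 for ELF7 and 5.69 for SPT16 over S2P, and PSBQ-2, of photosystem II, 5.59 for SSRP1 over S2P.

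PTAC16, of the plastid transcriptionally active chromosome, was the only member in 5 lists, with 5.13 for SSRP1 over S5P at most. ATPC1 reached 3.23 for SPT16 over S2P, PRK, for phosphoribulokinase, 3.58 and GAPB, for a subunit of glyceraldehyde-3-phosphate dehydrogenase, 3.84 for SSRP1 over S2P. The Rubisco small subunit genes RBCS2B, RBCS3B and RBCS1B had 8.16, 3.70 and 2.33 for SSRP1 over S2P. They are near-identical copies between which reads can be split, so these values are uncertain. The antenna genes LHCB2.1 and LHCB2.2 and the photorespiratory gene AGT had no summit. Splitting of reads between the LHCB2 genes was not tested.

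Nitrogen assimilation genes had 3 of 7 members marked, by SSRP1 and SPT16 over S2P. GS2 and GSR 1, for plastid and cytosolic glutamine synthetase, scored 8.45 and 6.95 for SSRP1 and 6.76 and 4.93 for SPT16, and GS2 had a further 3.24 for SPT16 over S5P. NIT1, for a nitrilase, scored 9.02 for SSRP1 and 10.8 for SPT16. The nitrate reductase gene NIA2, the nitrate transporter gene NRT2.6 and the nitrilase genes NIT2 and NIT3 had none.

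Defence and calcium signalling genes had 6 of 10 members marked, all 6 of them by both FACT subunits over S2P and 5 by ELF7 over S2P. LOX2, for a lipoxygenase of jasmonate synthesis, was in 7 lists, with SPT16 at 12.1 over S2P and 8.80 over S5P, SSRP1 at 9.58 and 6.15, SPT5 at 4.41 and 4.17, and ELF7 at 4.56 over S2P alone. MYB30, a transcription factor gene of the hypersensitive response, had its highest scores over S2P, at 21.7 with SSRP1, 20.4 with SPT16 and 8.30 with ELF7. The myrosinase gene TGG1 was in 6 lists, with 8.6 for SSRP1 over S2P, 7.31 for ELF7 over S2P and 6.09 for ELF7 over S5P.

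The kinase gene MEKK1 scored 7.22 for SSRP1 over S5P and 2.79 for SPT5 over S5P. TCH2, for a touch-induced calmodulin-like protein, scored 12.8 for SSRP1 over S2P, and the calmodulin gene CAM1 5.66 for ELF7 over S2P. The salicylate-induced gene PR1, its relative PRB1, the second myrosinase gene TGG2 and AT5G39670 had no summit. The neighbouring pairs TGG1 and TGG2, and NIT1 and NIT2, thus each had a marked and an unmarked member. Reads can be split between similar copies, which was not tested for these pairs, so the contrast is uncertain.

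All 5 genes of the histone list were marked by SSRP1 and SPT16 over S2P and by SPT16 over S5P, 4 of them by ELF7 over S2P (8.15% of all coding genes), and none by SPT5. The H2B gene HTB11 had 15, 14.9 and 10.3 over S2P with SSRP1, SPT16 and ELF7. HTA7, an H2A gene, scored 14.1 for SPT16, 9.90 for SSRP1 and 9.37 for ELF7 over S2P, and 3.86 for SPT16 over S5P. HTB9, also for H2B, scored 10.8 for SPT16 over S2P, and AT3G45930 scored 13.2. AT3G46320 had no ELF7 summit, and its highest score was 6.90 for SPT16 over S5P. Histone genes have similar copies, and reads can be split between them.

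Translation, ubiquitin and chaperone genes had 5 of 9 members marked. The 14-3-3 protein gene GRF1 scored 15.8 for SSRP1 over S2P and 3.63 for SPT16 over S2P. J3, for a DnaJ co-chaperone, scored 11.1 for SSRP1 over S2P and was the only member with an SPT5 summit, 5.38 over S5P. BIP1, for the chaperone BiP of the endoplasmic reticulum, scored 7.17 for SSRP1 over S2P, the ribosomal protein gene RP1 5.94, and GRF3 4.28 for SPT16 over S2P. The ubiquitin genes UBQ10 and UBQ11, the ribosomal protein gene RPS15AD and the chaperone gene CR88 had no summit. Splitting of reads between the ubiquitin genes was not tested.

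Cell wall and growth genes had 7 of 11 members marked, all 7 by SSRP1 and SPT16 over S2P, 4 by ELF7 over S2P and none by SPT5. Beside XTH4 and EXO these were BR6OX2, a cytochrome P450 gene of brassinosteroid synthesis, with 16.9 for SPT16 over S2P, and XTH31, with 8.31 for SSRP1 over S2P. The glycine-rich protein genes GRP9, GRP-3 and GRP3S reached 7.73 for SPT16, 5.84 for SSRP1 and 4.85 for SSRP1 over S2P. SAH7, Prx37, the homeobox gene KNAT1 and the growth regulator gene AN3 had no summit.

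Outside coding genes, 500 pericentromeric summits fell at 281 places, when summits within 250 bp were joined, and 28 places held summits of at least 4 lists. The strongest was an SSRP1 summit over S2P of 32.0 on chromosome 2 at position 4142303, 3195 bp from AT2G10608 and in no annotated gene, at a place with summits of 6 lists. A place on chromosome 5 near position 13612100, 7356 bp from AT5G35405 and also in no annotated gene, was in 6 lists too, with 17.2 for SPT16 over S2P. On chromosome 1, SPT16 summits of 22.2 over S5P and 21.4 over S2P stood at position 11650481, 846 bp from GulLO1, and SSRP1 summits of 21.4 over S5P and 21.0 over S2P stood at position 11650456, 871 bp from it. An SPT16 summit over S2P of 20.3 lay at position 15926420 on chromosome 1 in AT1G09455, annotated as a noncoding RNA of no closer class. For SPT5 the strongest was 18.3 over S5P at position 2842016 on chromosome 2, 4 bp from PLA2-ALPHA, a phospholipase gene.

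Annotated pseudogenes were rarely marked. Summits outside coding genes lay in 24 of 3777 pericentromeric pseudogenes (0.635%, 0.408 to 0.944), against 3.94% of 1066 in the arms. Summits in a pseudogene and in no coding gene made up 2.24% of pericentromeric summits (63 summits), against 0.412% in the arms (113 summits). Transcribed pseudogenes stood at 9 of 431 (2.09%), against 4.85% in the arms, and the other pseudogenes at 15 of 3346 (0.448%), against 3.15%. Long noncoding RNA genes were marked outside coding genes in 4 of 618 cases (0.647%), against 2.13%, small nucleolar RNA genes in 3 of 24, against 51 of 263, and transfer RNA genes in 0 of 62, which allows up to 5.78% by the exact interval. The shares were thus lower than in the arms for pseudogenes and long noncoding RNA genes, and the small classes were too few to compare. How well reads can be placed in pseudogenes was not tested.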

How the data were processed

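ChIP-seq summit lists were analysed, 1 for each of 4 factors with each of 2 RNAPII forms. The submitters' processing notes name MACS3, deepTools, Bowtie2, Trimmomatic 0.39 and SAMtools 1.16.1 with genome build TAIR10. The sources used here do not give the settings of MACS3. The deposited score is the −log10 of a p- or q-value from MACS3, read as q; its minimum of 2.0 corresponds to 0.01. Positions were counted from 1. Genes came from a RefSeq table of TAIR10.1 without strand or exons, whose coordinates are not printed. Leaving out SPT5 over S5P, 86.6% of pericentromeric summits lay in coding genes unshifted, 72.2% to 74.3% after shifts of 500 bp and 87.5% to 88.5% after shifts of 100 to 200 bp, so small offsets are not resolved.

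Genes were assigned to a region by midpoint, and a summit in overlapping genes counted for each. Shares have exact Clopper-Pearson intervals, and ratios of densities the corresponding conditional binomial ones; the scripts were checked on simulated lists. Named genes were the 3 highest scores inside genes per list, the 12 genes in most lists, the members of 6 gene lists, the marked genes nearest to the coding-free stretches, and the 5 highest scores outside coding genes. Regions, genes and lists were chosen with earlier results of these data known. Alternatives covered denominators, region limits, score minimums, gene classes and single chromosomes; the classes by symbol and by pseudogene were added after the data were seen. Python 3.11.15 with pandas 2.3.3, NumPy 2.4.6, SciPy 1.17.1 and matplotlib 3.10.9 was used.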

Additional observations from a re-analysis of the deposited data

How the results depend on the processing

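Of 199 alternative values for 34 results, 129 stayed within the interval of the reported value, and 5 changed direction, which was counted only for a value whose interval excluded 1 (ratios) or 50% (shares). SPT5 over S2P and ELF7 over S5P, whose intervals include 1, also passed 1: SPT5 over S2P at 1.03 per kb, 1.01 without a pseudogene near and 1.35 for genes with a symbol, and ELF7 over S5P at 1.1 for genes with a symbol. Ratios to the arms are given as SPT5 over S2P and S5P, then ELF7, SSRP1 and SPT16 in the same order. Changed directions were SPT5 over S5P at 1.05 with scores of at least 10 and at 1.04 per kb of coding gene, ELF7 over S2P at 1.08 for genes with a symbol, and the SPT16 share over S2P at 50.9% with scores of at least 5 and 52.1% by genes. The cause was not tested beyond each alternative's construction. With limits moved 0.5 Mb inwards ELF7 over S2P (0.688) was below SPT16 over S5P (0.712), and outwards ELF7 over S5P (0.733) was below SPT16 (0.753 and 0.775).

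Per Mb the ratios were 0.341, 0.343, 0.308, 0.328, 0.267, 0.263, 0.282 and 0.297, and per gene of every type 0.440, 0.443, 0.398, 0.424, 0.345, 0.340, 0.364 and 0.384. Per kb of coding gene ELF7 over S2P had 0.932, SSRP1 0.807 and 0.795, and SPT16 0.851 and 0.898. For genes with a symbol SSRP1 had 0.913 and 0.907, and SPT16 0.965 and 0.973. With marked genes in place of summits SPT5 over S5P had 0.738 and SPT16 over S5P 0.670, and with a margin of 500 bp SPT5 over S5P had 0.719 and SPT16 0.637 and 0.648. Without a pseudogene within 5 kb, ELF7 over S2P had 0.892 and SPT16 over S2P 0.777. With scores of at least 10, ELF7 over S2P had 0.513, SPT16 0.628 and 0.808, and SPT5 over S2P had no pericentromeric summit. With limits moved 0.5 Mb inwards, SSRP1 over S5P had 0.586 and SPT16 over S2P 0.641.

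With scores of at least 5, the share inside genes was 37.1% for SPT5 over S5P, 100% for ELF7 over S2P and 69.4% for SPT16 over S5P, and the median distance to a gene end was 288 bp for SPT5, 740 bp for ELF7 and 501 bp for SPT16 over S2P, and 354 bp for SPT16 over S5P. The S2P share was then 4.76% for SPT5, 83.5% for ELF7 and 64.3% for SSRP1, and by genes 13.7% for SPT5. Inside or within 500 bp lay 96.2% of SPT5 and 93.8% of SSRP1 summits over S5P, and 93.4% and 93.9% of SPT16 summits. The strongest summit per gene gave medians of 464.5 bp for SSRP1 and 508.5 bp for SPT16 over S2P.

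With summits within 250 bp in place of genes, the shared part of the S5P list was 65.3% for ELF7, 75.4% for SSRP1 and 52.6% for SPT16, and with scores of at least 5 it was 88.2% for ELF7 and 88.4% for SSRP1. SSRP1 over S2P shared 56.4% and 48.4% with SPT16 over S5P under these 2 settings, and SSRP1 over S5P 62.7% and 81.9% with SPT16 over S2P. Without 1 chromosome at a time each density ratio stayed below 1, between 0.749 and 0.973 for SPT5 over S2P. No paired analysis was possible because the lists hold no column per library; for the same reason no library could be left out and depth sets an unknown limit on list length.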

Other observations

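SADHU elements are short noncoding retroelements of Arabidopsis. They were looked at after their values were seen, because SADHU1-1 stood among the strongest summits outside coding genes. Of 9 pericentromeric elements 3 were marked, against 2 of 7 in the arms, which is too few to compare. SADHU1-1 on chromosome 2 was in 5 lists, with its highest score of 16.4 for SSRP1 over S2P at position 4006733, 7019 bp from the nearest coding gene. SADHU2-1 on chromosome 1 was in 5 lists, with 9.51 for SSRP1 over S2P, and 4 of its summits also lay in the overlapping pseudogene AT1G35110. SADHU1-3 on chromosome 5 was in 4 lists, with 7.06 at most. The other 6 pericentromeric elements had no summit.

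MYC2, a transcription factor gene of the jasmonate response, lies just inside the limit on chromosome 1 and was also looked at after its values were seen. It was in 6 lists, with SSRP1 at 21.0, SPT16 at 15.2 and ELF7 at 7.55 over S2P, and with SPT16 at 4.15, SPT5 at 2.89 and SSRP1 at 2.20 over S5P. AT1G32630 overlaps it.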
